A study of Mus musculus with 2 samples.

Results

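The elements described here are the regions of a genome-wide reporter assay that lie in the large histone gene cluster of mouse chromosome 13. They were chosen by position. An element of the authors' deposited table belongs to the set when its midpoint is within 10 kb of an annotated transcript start of a protein-coding gene on chromosome 13 whose symbol begins with Hist1h. The rule takes 29 of 18431 elements, and it draws only on regions that had already passed the authors' q-value threshold of 0.01, so each member has a called fold and that call is not a finding. The cluster holds 54 Hist1h genes, of which 6 encode H1, 13 encode H2A, 15 encode H2B, 9 encode H3 and 11 encode H4.

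Histones are the proteins around which DNA is wound. H2A, H2B, H3 and H4 form the core particle, and the linker histone H1 sits on the DNA between particles. Genes of the Hist1h type are transcribed mainly while DNA is being copied, carry no introns, and end their RNA in a conserved stem-loop in place of a poly(A) tail. Their promoters carry known sites, among them CCAAT boxes, the octamer bound by POU factors in H2B promoters, the HINFP site of H4 promoters and the AC box of H1 promoters. Activated T cells divide rapidly, which is the setting in which these genes are known to be used.

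STARR-seq places fragments of the genome in a transcribed part of a reporter plasmid and reads how much RNA each fragment gives. Here the assay was done in activated T helper 2 cells, primary cells of the mouse strain C57BL/6NJ that carried the reporter as an episome after transient transfection. Activation was by antibodies to CD3e (0.25 ug/mL) and CD28 (1 ug/mL), both given for 3 days. An antibody to interferon-gamma (2 ug/mL) and interleukin-2 were present for 4 days, and interleukin-4 was added as well. There is 1 group of 2 output libraries, named biological replicates 1 and 2, and both carry the same donor record. The labels do not say whether they came from separate animals. They give both libraries a size range of 200 to 400, read here as fragment length in bp.

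The table gives 1 value per element for both libraries together, so no value per library, no spread between replicates and no depth can be given for any element. The sources used here do not state the base or the reference of the log fold. It is read here as log2 of RNA output over input, so that a positive value means more RNA than expected from the plasmid pool. With 1 group the design has no contrast of conditions. What can be compared are elements and genes, and no test was made across them, since they share libraries and sequence.

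The sequences below show what the histone promoters in question look like, with and without an element. Coordinates are on mm10, and each sequence runs 5′ to 3′ in the direction of the named gene. For divergent pairs, in which an H2A and an H2B gene point away from each other, the stretch between both starts is given in the direction of the H2B gene. For the other genes it is the 160 bases before the most upstream start in GENCODE or RefSeq. Capitals mark matches on either strand to the TATA box TATAAA, the CCAAT box CCAAT, the octamer ATTTGCAT, the H1 AC box AAACACA, the HINFP core GTCCG and the E2F site TTTCCCGC, TTTGGCGC, TTTCGCGC or TTTGCCGC.

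The first set holds the intergenic stretches of 3 divergent pairs with an element, and of Hist1h2ak/Hist1h2bn, a pair without.
Hist1h2ac/Hist1h2bc (chr13:23683960-23684198, plus strand): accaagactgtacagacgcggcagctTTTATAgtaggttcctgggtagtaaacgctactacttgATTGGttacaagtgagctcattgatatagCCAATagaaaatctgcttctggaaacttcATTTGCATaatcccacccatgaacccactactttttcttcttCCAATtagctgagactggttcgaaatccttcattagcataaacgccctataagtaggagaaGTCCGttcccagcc
Hist1h2an/Hist1h2bp (chr13:21787249-21787460, plus strand): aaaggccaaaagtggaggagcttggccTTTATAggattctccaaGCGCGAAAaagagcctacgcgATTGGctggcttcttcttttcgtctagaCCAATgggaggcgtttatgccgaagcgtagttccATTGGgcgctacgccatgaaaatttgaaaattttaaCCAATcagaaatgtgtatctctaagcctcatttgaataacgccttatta
Hist1h2ag/Hist1h2bj (chr13:22042950-22043197, plus strand): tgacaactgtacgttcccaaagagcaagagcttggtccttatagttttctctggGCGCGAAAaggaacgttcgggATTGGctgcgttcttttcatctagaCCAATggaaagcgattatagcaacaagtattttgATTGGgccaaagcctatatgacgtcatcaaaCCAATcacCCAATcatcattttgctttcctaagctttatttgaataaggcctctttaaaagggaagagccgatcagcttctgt
Hist1h2ak/Hist1h2bn, no element (chr13:21753913-21754075, plus strand): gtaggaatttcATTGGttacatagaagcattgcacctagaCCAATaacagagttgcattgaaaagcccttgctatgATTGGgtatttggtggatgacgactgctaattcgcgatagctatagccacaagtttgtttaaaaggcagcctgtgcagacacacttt

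The next set holds H4 promoters. Hist1h4m and Hist1h4n had the largest folds of the cluster, and Hist1h4c has no repeated stretch outside its coding sequence. Hist1h4j and Hist1h4k are close copies of which Hist1h4k has no element. The stretches of these copies end at different points. That of Hist1h4j cuts off a TATA box at base 21735032, which its element contains.
Hist1h4m (chr13:21811586-21811745, plus strand): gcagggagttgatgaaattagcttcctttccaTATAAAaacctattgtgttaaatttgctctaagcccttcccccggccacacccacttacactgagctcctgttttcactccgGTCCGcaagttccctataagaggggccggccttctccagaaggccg
Hist1h4n (chr13:21832198-21832357, minus strand): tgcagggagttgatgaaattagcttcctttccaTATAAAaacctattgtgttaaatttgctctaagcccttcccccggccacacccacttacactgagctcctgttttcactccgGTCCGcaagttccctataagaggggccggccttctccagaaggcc
Hist1h4c (chr13:23698459-23698618, minus strand): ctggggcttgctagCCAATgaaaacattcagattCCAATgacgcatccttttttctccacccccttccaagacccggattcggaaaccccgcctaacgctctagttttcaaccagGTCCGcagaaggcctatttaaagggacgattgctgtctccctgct
Hist1h4j (chr13:21734874-21735033, plus strand): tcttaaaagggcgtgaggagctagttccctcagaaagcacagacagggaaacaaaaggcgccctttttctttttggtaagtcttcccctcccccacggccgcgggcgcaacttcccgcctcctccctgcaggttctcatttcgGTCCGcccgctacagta
Hist1h4k, no element (chr13:21750554-21750713, minus strand): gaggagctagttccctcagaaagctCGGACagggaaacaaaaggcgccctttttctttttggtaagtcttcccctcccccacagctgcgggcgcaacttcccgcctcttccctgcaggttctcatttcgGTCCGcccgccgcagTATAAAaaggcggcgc

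H3 and H1 promoters follow, each time with 1 gene that has no element at its start.
Hist1h3e (chr13:23562386-23562545, minus strand): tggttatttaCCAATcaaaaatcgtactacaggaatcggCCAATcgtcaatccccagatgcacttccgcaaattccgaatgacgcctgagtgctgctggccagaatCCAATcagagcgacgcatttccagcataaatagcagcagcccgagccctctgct
Hist1h3h (chr13:21717468-21717627, plus strand): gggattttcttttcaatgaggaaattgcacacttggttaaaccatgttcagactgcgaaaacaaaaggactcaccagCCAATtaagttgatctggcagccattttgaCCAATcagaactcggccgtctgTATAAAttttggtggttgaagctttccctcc
Hist1h3a, no element (chr13:23762387-23762546, minus strand): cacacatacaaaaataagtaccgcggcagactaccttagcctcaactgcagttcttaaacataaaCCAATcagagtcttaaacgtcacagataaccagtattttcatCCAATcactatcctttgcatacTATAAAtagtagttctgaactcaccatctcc
Hist1h1c (chr13:23738647-23738806, plus strand): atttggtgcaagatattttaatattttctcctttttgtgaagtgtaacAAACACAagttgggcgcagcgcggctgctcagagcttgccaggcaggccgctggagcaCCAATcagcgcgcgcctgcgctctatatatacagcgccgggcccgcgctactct
Hist1h1a (chr13:23763506-23763665, plus strand): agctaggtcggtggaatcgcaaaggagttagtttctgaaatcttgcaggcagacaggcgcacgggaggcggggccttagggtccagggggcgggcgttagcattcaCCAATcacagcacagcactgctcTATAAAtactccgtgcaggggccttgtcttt
Hist1h1e, no element (chr13:23622559-23622718, minus strand): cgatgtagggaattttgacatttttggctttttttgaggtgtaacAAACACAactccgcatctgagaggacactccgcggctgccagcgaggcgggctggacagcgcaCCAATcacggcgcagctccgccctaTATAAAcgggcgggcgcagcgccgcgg

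Of the 29 members, the authors' deposited table gives 28 a positive sign and 1 a negative sign. Of all elements, 71.5% were positive. The members' median log2 fold was 1.06 and that of all elements 0.94. Their median width was 675 bp against 500 bp over all elements. The members were rich in GC, with a median of 55.9% against 49.9%, and kept CpG dinucleotides at a median ratio of observed to expected of 0.91 against 0.30. Promoter elements outside the members were alike in this respect, with a median CpG ratio of 0.78 and a median width of 775 bp.

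Most members lie on histone promoters. The midpoint of 25 members was within 1 kb of a Hist1h start, and all 25 were positive. Of the elements within 1 kb of a start of any protein-coding gene, 34.4% were positive. These promoter elements as a whole are richer in GC than the histone ones, with a median of 64.9% outside the members against 57.1%. Among the promoter elements whose GC content falls in the histone range of 52.9% to 60.0%, 70.3% were positive. The histone promoter elements had a median log2 fold of 1.02, and the 2056 positive promoter elements outside the members also had a median of 1.02. The histone promoter elements thus shared 1 sign, and their median fold equalled that of other positive promoter elements.

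Counted by gene, 32 of the 54 Hist1h genes had a positive element within 1 kb of a start and 0 had a negative one. Among all protein-coding genes 9.85% had a positive promoter element and 17.5% a negative one. Within 10 kb, 47 of 54 Hist1h genes had a positive element, against 24.5% of all protein-coding genes, and 3 had a negative one, against 22.1%. Histone genes stand close together and share elements, so the gene counts are larger than the number of elements behind them.

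**Figure D1:**
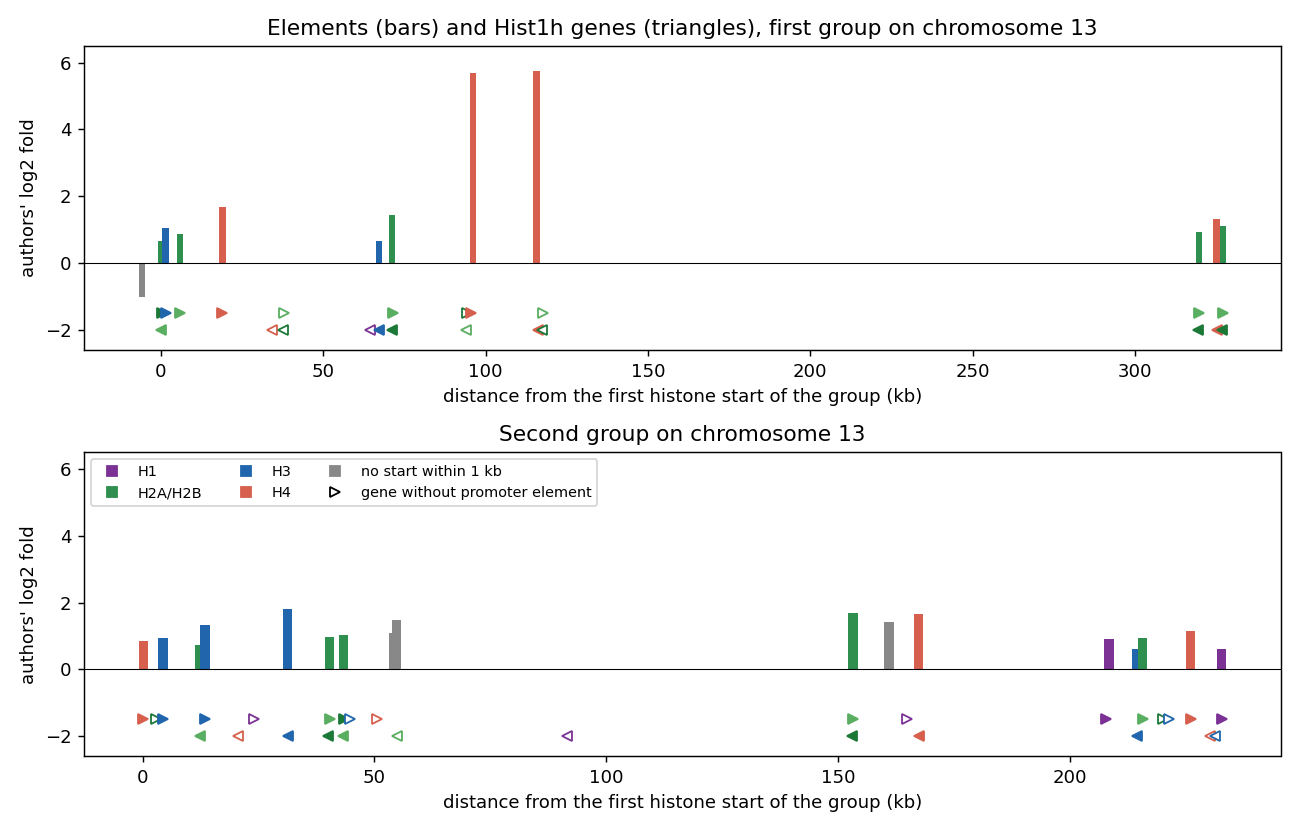
Elements of the histone cluster (bars, drawn 2 kb wide for visibility) by the authors' log2 fold on the y axis, against distance in kb from the first histone start of each of 2 groups of genes on the x axis. Triangles show the genes and their direction, coloured by type and open where no element lies within 1 kb of a start. Hist1h2ba and Hist1h2aa, which have no such element, lie outside the ranges drawn. The bars of 2 H4 elements reach 5.70 and 5.75, and 1 bar points down.

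By type, a promoter element was present at 2 of 6 H1 genes, 7 of 13 H2A genes, 10 of 15 H2B genes, 6 of 9 H3 genes and 7 of 11 H4 genes. Elements at H4 starts had the highest median log2 fold, 1.65, with a range from 0.85 to 5.75 over 7 elements. At H3 starts the median was 1.00 over 6 elements, from 0.60 to 1.80. At H2A and H2B starts it was 0.94 over 10 elements, from 0.66 to 1.68. The 2 H1 elements had 0.62 and 0.90. Without Hist1h4m and Hist1h4n the H4 median was 1.33 over 5 elements, with a maximum of 1.69, so the H4 range then lies within that of H3.

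**Figure D2:**
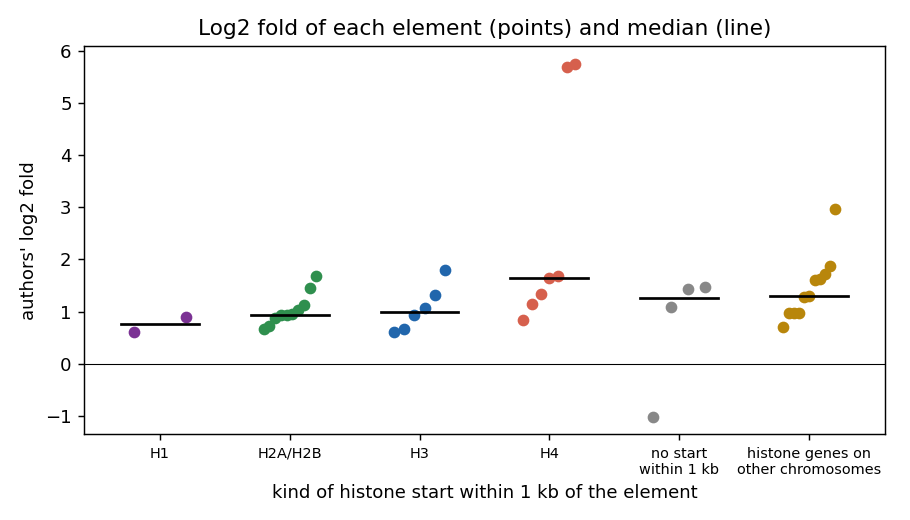
The authors' log2 fold (y axis) of each element (points) with the median (line), by the kind of histone start within 1 kb (x axis). H4 has 2 points above 5, and the remaining H4 points overlap with those of the other types; the last column holds 11 elements within 10 kb of histone genes on other chromosomes.

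H2A and H2B form the dimers that dock on the H3 and H4 core, and their genes often share a promoter. The cluster has 11 divergent pairs of an H2A and an H2B gene, with 278 to 334 bp between the start codons. At 7 of them an element was called, and each of the 7 elements spans the whole gap and runs into both coding sequences. In the authors' deposited table the log2 fold was 1.68 at Hist1h2ac/Hist1h2bc, 1.45 at Hist1h2an/Hist1h2bp and 1.12 at Hist1h2ag/Hist1h2bj. It was 1.02 at Hist1h2ad/Hist1h2bf, 0.95 at Hist1h2ae/Hist1h2bg, 0.93 at Hist1h2ah/Hist1h2bk and 0.66 at Hist1h2ai/Hist1h2bl. The 4 pairs with no element were Hist1h2ak/Hist1h2bn, Hist1h2ao/Hist1h2bq, Hist1h2ap/Hist1h2br and Hist1h2aa/Hist1h2ba. The last of these is the pair that holds the testis H2A and H2B genes.

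H2B genes that stand apart from an H2A partner also carried elements. Hist1h2bm had 0.87, Hist1h2bb had 0.93, and Hist1h2bh had 0.72 at chr13:23542976-23543650, an element that also falls within 1 kb of the annotated Hist1h3f start.

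H3 carries the tail on which many of the known histone marks are placed. Hist1h3e had the largest log2 fold of its type, 1.80, in an element of 800 bp that covers the whole coding sequence and the 3′ stem-loop. Hist1h3f followed with 1.32, Hist1h3h with 1.06 and Hist1h3g with 0.93. Hist1h3i and Hist1h3c were lower, with 0.67 and 0.60. These 2 elements were narrow, 275 and 375 bp, as was that of Hist1h3h with 325 bp.

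H4 pairs with H3 and varies least in its protein sequence. The authors' deposited table gives log2 folds of 1.69 for Hist1h4j, 1.65 for Hist1h4c, 1.33 for Hist1h4i, 1.15 for Hist1h4b and 0.85 for Hist1h4h. Hist1h4m at chr13:21811726-21812725 had 5.70, and Hist1h4n at chr13:21831251-21832325 had 5.75. These 2 rank 54 and 49 by fold among all 18431 elements, and the next member, Hist1h3e, had 1.80. Most of each element, but not all of it, lies in a copy of the other, as described below. Bases masked as repeats in the genome sequence made up 31.8% of the Hist1h4m element and 16.5% of the Hist1h4n element. The next highest share among the histone promoter elements was 9.5%, at Hist1h1a. Whether the masked bases bear on these folds was not tested.

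Hist1h1c, a linker histone gene that is used in many somatic cells, had 0.90 in the widest element of the cluster, 1425 bp. Hist1h1a had 0.62 in the narrowest, 200 bp. No element was within 1 kb of a start of Hist1h1b, Hist1h1d, Hist1h1e or of Hist1h1t, the testis H1 gene.

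The elements sit over the start of the gene. Measured in the direction of the gene, the midpoint of the 25 promoter elements lay from 94.5 bp before to 605 bp after the nearest start, with a median of 37.5 bp after it, and 19 of 25 lay at or after the start. In all, 24 cover an annotated start and 25 a start codon. Coding sequence made up 28.7% to 65.2% of their bases, with a median of 51.5%. H4 elements reached far downstream, with a median of 498 bp after the start codon and 202 bp before it, and 6 of 7 contain the whole coding sequence. Of the 6 H3 elements 1 does so, and the H3 median was 238 bp after and 206 bp before the start codon. H2A and H2B elements reached farther before the start codon. The medians were 623 bp before and 217 bp after for H2A, and 504 bp before and 335 bp after for H2B. All 7 H2A elements and 7 of the 11 H2B elements are those of divergent pairs, counted for both genes. Their reach before the codon crosses a gap of at most 334 bp and runs into the coding sequence of the partner. The unpaired Hist1h2be, Hist1h2bh, Hist1h2bm and Hist1h2bb elements reached 194, 298, 347 and 544 bp before the codon. Over all 33 start codons covered by a member the medians were 347 bp before and 320 bp after.

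**Figure D3:**
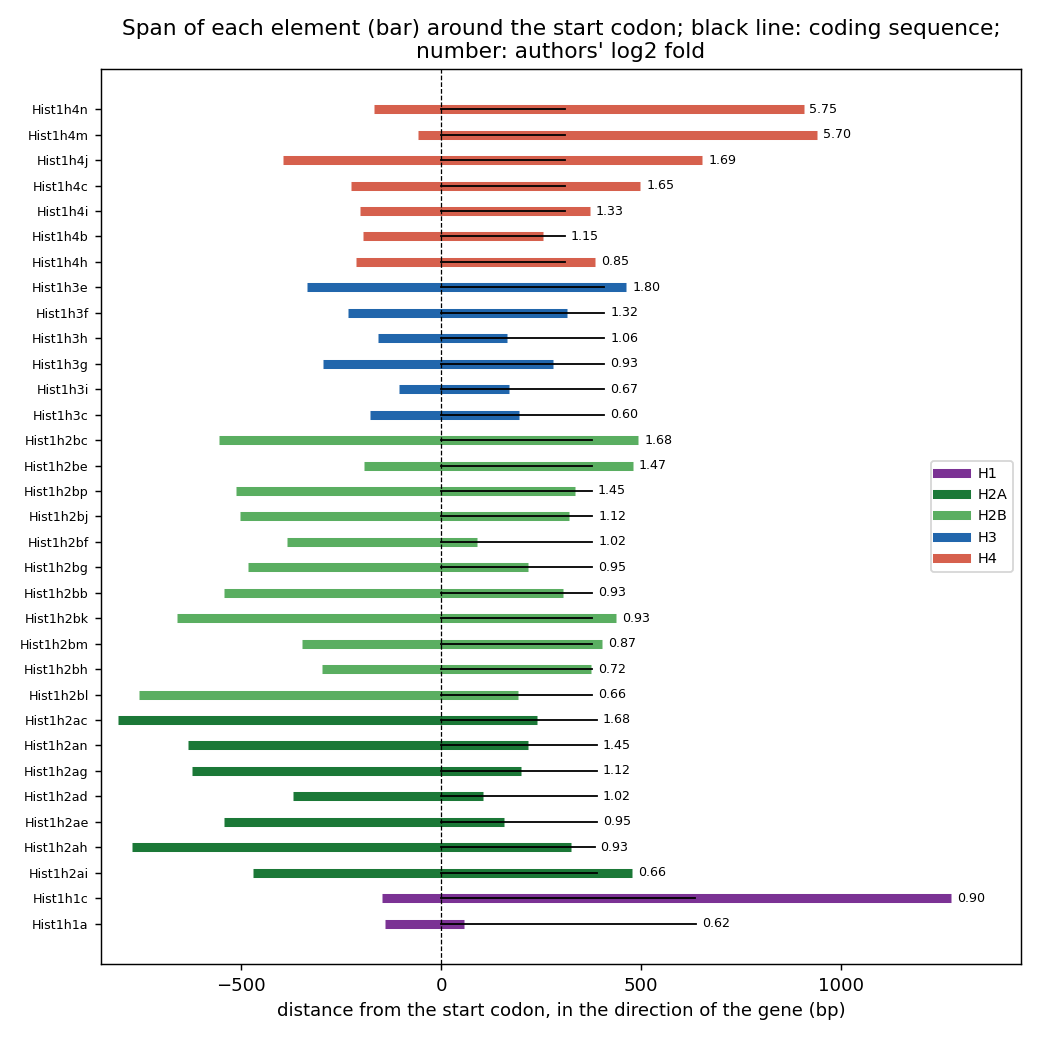
Span of each element (coloured bar) in bp around the start codon (dashed line at 0), in the direction of the gene, with the coding sequence as a black line and the authors' log2 fold as a number. Elements of divergent pairs appear once for each gene; Hist1h4m and Hist1h4n extend 941 and 907 bp past the start codon.

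The 3′ stem-loop binds SLBP, the protein that guides processing and export of histone RNA. A stem-loop was found within 150 bp after the stop codon of 51 of the 54 genes, and 12 members contain such a stem-loop. Examples are given below with the stem in capitals. They were found with a pattern that fixes most of the 16 bases, so their likeness across types is set by the search.
Hist1h2bc stem-loop (chr13:23684647-23684662, plus strand): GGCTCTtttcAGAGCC
Hist1h3e stem-loop (chr13:23561903-23561918, minus strand): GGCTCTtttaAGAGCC
Hist1h4m stem-loop (chr13:21812129-21812144, plus strand): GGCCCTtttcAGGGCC
Of the 26 members over a start codon, the 12 with a stem-loop had a median log2 fold of 1.56, from 0.66 to 5.75. The 14 without had 0.94, from 0.60 to 1.45. Without Hist1h4m and Hist1h4n the first median was 1.40 over 10 elements. Elements with a stem-loop were also wider, with a median of 975 bp against 563 bp. They differed by histone type too. The elements of Hist1h4c, Hist1h4h, Hist1h4i, Hist1h4j, Hist1h4m and Hist1h4n hold a stem-loop, and of the H4 elements that of Hist1h4b alone does not. The parts of width and type in the difference in fold were not tested. An element wider than the library size range can join several fragments. A promoter and a stem-loop in it need not have been on the same fragment.

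Of the 4 members that are not within 1 kb of an annotated start, 3 were positive. The element at chr13:23585476-23586150 had a log2 fold of 1.47 in the authors' deposited table and covers the start codon of Hist1h2be. GENCODE M21 places the Hist1h2be starts at least 35122 bp upstream of that codon, so the rule counted this member through Hist1h4d, at 4215 bp. RefSeq lists a further Hist1h2be start at base 23585970, just upstream of the codon. The 160 bases before that RefSeq start carry 1 octamer and 2 CCAAT boxes. Among the stretches shown above, the octamer is in that of Hist1h2ac/Hist1h2bc alone, and CCAAT boxes are in all 4.
Hist1h2be (chr13:23585971-23586130, minus strand): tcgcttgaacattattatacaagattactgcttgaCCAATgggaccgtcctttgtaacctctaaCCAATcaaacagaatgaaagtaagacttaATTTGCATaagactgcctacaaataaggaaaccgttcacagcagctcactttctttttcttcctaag
Counted from start codons, 33 genes and 27 elements would fall within the 1 kb limit. The 27 include the neighbouring element at chr13:23585026-23585350, with 1.09, whose midpoint is 768 bp after the Hist1h2be start codon. This neighbour lies past the 3′ end of Hist1h2be and holds no coding bases, so it is not at its promoter.

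The element at chr13:23691701-23692300 is of another make. Its log2 fold was 1.42, its GC content 46.5% and its CpG ratio 0.22, both below every histone promoter element. It lies 3814 bp before the start of Hist1h1t. It contains no CCAAT box, octamer or AC box. It does contain the AP-1 site TGANTCA, the STAT site TTCNNNGAA and an interferon response site (ISRE), which are bound by factor families active in stimulated T cells. Each of these short sites also matched in other members. AP-1 was in Hist1h2ai/Hist1h2bl and Hist1h2bm, and STAT in Hist1h3e and the negative member. The ISRE was in the Hist1h2be element and its neighbour. No other member held all of them. A stretch of it is shown with these sites and a TATA box match in capitals.
element upstream of Hist1h1t (chr13:23691944-23692155, plus strand): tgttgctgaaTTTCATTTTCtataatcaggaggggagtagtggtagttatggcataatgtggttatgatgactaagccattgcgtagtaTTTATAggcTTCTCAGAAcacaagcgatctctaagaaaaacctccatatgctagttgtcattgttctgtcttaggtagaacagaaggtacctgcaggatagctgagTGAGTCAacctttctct

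The only negative member, at chr13:21710001-21710675 with -1.02, is also the member farthest from a histone start, at 5805 bp. It contains a tRNA gene, annotated as n-TGgcc7, at bases 21710580 to 21710650, shown in capitals.
n-TGgcc7 (chr13:21710560-21710670, plus strand): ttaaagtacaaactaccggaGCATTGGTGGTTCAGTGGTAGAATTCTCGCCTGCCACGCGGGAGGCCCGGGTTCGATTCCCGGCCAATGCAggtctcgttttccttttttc
The histone cluster is interleaved with 79 tRNA genes between 10 kb before the first and 10 kb after the last Hist1h start. In that interval there were 48 elements, 11 of them negative, and 10 of these 11 hold a tRNA gene. The tRNA gene n-TRacg1 lies in a positive element, with 1.29. Genome-wide, 56 elements hold a tRNA gene, and 87.5% of them were negative.

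The sites shown above were counted by type in the RefSeq promoters, which run from 250 bases before to 50 after a start. Such a promoter was found for 51 of the 54 genes. The HINFP core was present in 11 of 11 H4 promoters, against 23.4% of all 32851 promoters. It was also present in 5 of 13 H2A, 6 of 14 H2B, 1 of 7 H3 and 0 of 6 H1 promoters. The CCAAT box was present in every H1, H2A, H2B and H3 promoter that matched, against 3 of 11 for H4 and 37.4% of all. The AC box was found in 5 of 6 H1 promoters, 2 of 13 H2A and 2 of 14 H2B promoters, against 7.18% of all. The octamer was found in 5 of 13 H2A and 6 of 14 H2B promoters, in 0 of the other types, and in 1.74% of all promoters. The cAMP response site core TGACGT was found in 6 of 13 H2A, 7 of 14 H2B and 3 of 11 H4 promoters, and in 7.51% of all. Windows of a divergent H2A and H2B pair overlap, so these 2 types share matches.

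**Figure D4:**
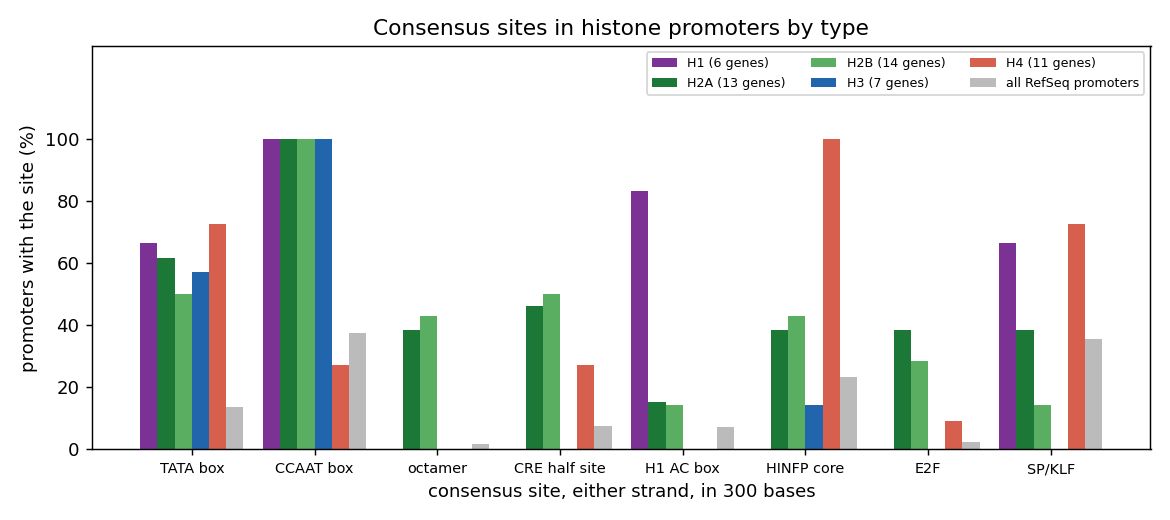
Percent of promoters (y axis) that hold each consensus site on either strand within 300 bases (x axis), for the histone types (coloured bars, numbers of genes in the legend) and for all RefSeq promoters (grey). The HINFP core reaches 100% in H4, and the CCAAT box 100% in the other 4 types.

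Counts of the same sites at genes with and without an element were as follows. The HINFP core was present in 7 of 7 H4 promoters with an element and in 4 of 4 without. All 5 H3 promoters with an element and both without had a CCAAT box. The octamer was present in 4 of 9 H2B promoters with an element and 2 of 5 without. The E2F site was present in 4 of 7 H2A promoters with an element and 1 of 6 without, and in 4 of 9 H2B promoters with an element and 0 of 5 without. Over all types the E2F site was in 8 of 30 promoters with an element and 2 of 21 without. The 8 are all H2A or H2B promoters, and a match in a divergent pair can count for both genes. The AC box was present in 1 of 2 H1 promoters with an element and 4 of 4 without. Its counts over all types were 2 of 30 with an element and 7 of 21 without, and 4 of these 7 are the H1 promoters. For the other sites the counts over all types, of 30 with and of 21 without, were as follows. They were 17 and 14 for the TATA box, 24 and 19 for the CCAAT box, and 7 and 4 for the octamer. The HINFP core had 14 and 9, and TGACGT had 9 and 7. These are small counts of letter matches, and no test was made on them.

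Within each type, the Hist1h genes were by median more alike in the coding sequence than before it. Between pairs of genes the median identity of the coding sequence was 97.9% for H2A, 97.6% for H2B, 97.8% for H3, 95.1% for H4 and 70.6% for H1. In the 200 bases before the start codon the medians ran from 46.5% for H4 to 51.0% for H1, and pairs of different types had 45.5%. Some pairs were alike there too. Identity was 100% for Hist1h2ao with Hist1h2ap and Hist1h2bq with Hist1h2br, 99.5% for Hist1h4m with Hist1h4n and 95.5% for Hist1h4j with Hist1h4k. A stretch that is the same in 2 places cannot by itself tell which place a read came from. The sources used here do not say how the authors counted such reads.

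Every member was therefore cut into overlapping stretches of 50 bases, each of which was looked up in the rest of the genome. Of the stretches centred in coding sequence a median of 63.4% per member had an exact copy elsewhere, over 26 members. Outside the coding sequence the median was 0% over 29 members, and the share was higher in coding sequence in 25 of 26 members. The exceptions to a share of 0 outside the coding sequence were Hist1h4m with 82.2%, Hist1h4n with 79.9%, Hist1h2bb with 13.1%, Hist1h4j with 8.82% and the element with the tRNA gene with 4.15%. The H3 genes show how far this can go. The first 167 coding bases of Hist1h3h, all of which lie in its element, are identical in Hist1h3i, whose element holds them too. The start codon is in capitals.
Hist1h3h coding start (chr13:21717659-21717825, plus strand): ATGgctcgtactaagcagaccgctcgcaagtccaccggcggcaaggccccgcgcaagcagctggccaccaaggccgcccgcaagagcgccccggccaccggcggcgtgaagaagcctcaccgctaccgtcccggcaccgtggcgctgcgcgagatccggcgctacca

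**Figure D5:**
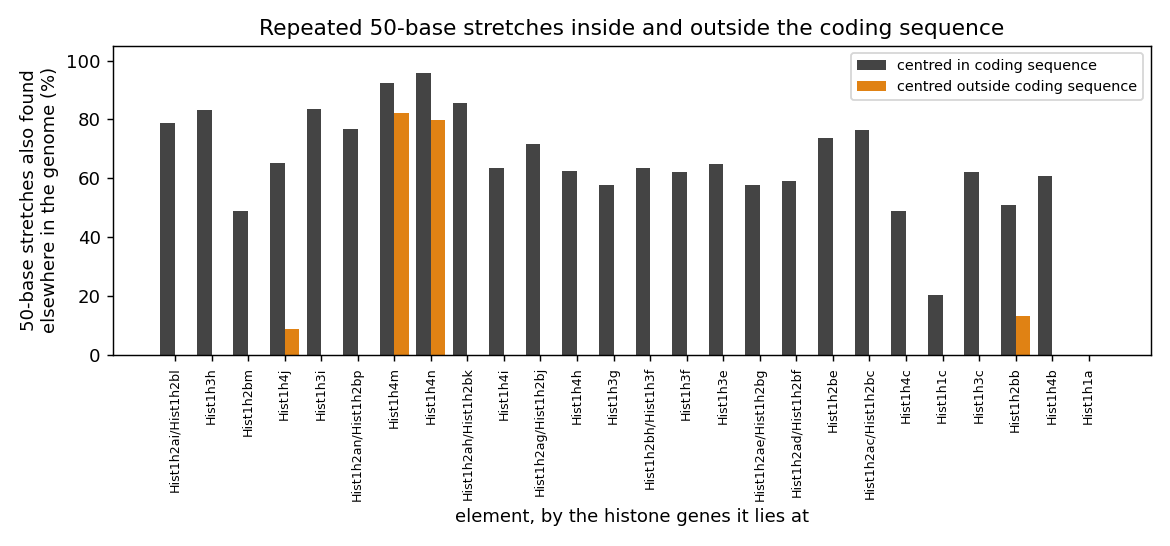
Percent of 50-base stretches (y axis) of each element that occur elsewhere in the genome, centred in the coding sequence (dark) or outside it (orange), by element (x axis) along the chromosome. Dark bars are higher in 25 of 26 elements, and the orange bars exceed 15% at Hist1h4m and Hist1h4n alone.

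A match of at least 95% identity over at least 50% of the length was found elsewhere for 13 members, and over at least 80% of the length for 0. The 13 members with such a match had a median log2 fold of 1.15, and the 16 without had 0.99. Leaving out the 13, 15 of 16 members were positive. These 16 are not free of repeated sequence, since the criterion asks for 1 long match. Of all 50-base stretches, 55.5% of those in Hist1h2ah/Hist1h2bk and 48.7% in Hist1h2ai/Hist1h2bl occur elsewhere, and neither element is among the 13. Hist1h4j is among the 13 with 26.2%.

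Hist1h4m and Hist1h4n lie in a large inverted repeat. Its arms, chr13:21792963-21812409 and chr13:21831532-21850923, align over 19476 bp with 98.9% identity and are 19122 bp apart. They hold 6 Hist1h genes, which are Hist1h2bq, Hist1h2ao and Hist1h4m in the first arm and Hist1h4n, Hist1h2ap and Hist1h2br in the other. Of the Hist1h4m element 684 of 1000 bp lie in its arm, and of the Hist1h4n element 794 of 1075 bp. The match to the other copy covers 68.4% of the Hist1h4m element and 73.9% of the Hist1h4n element. Of all their 50-base stretches, 85.6% and 84.7% occur elsewhere, so some repeated stretches reach outside the arms. Hist1h4m and Hist1h4n are 100% identical in the coding sequence and 99.5% in the 200 bases before it. The Hist1h4m element begins 20 bp before the start, so the HINFP core printed above for that gene is outside it, whereas the Hist1h4n element begins 129 bp before the start and includes it. The divergent pair in each arm, Hist1h2ao/Hist1h2bq and Hist1h2ap/Hist1h2br, is equally duplicated and had no element. Whether the shared reads of the copies bear on the 2 largest folds of the cluster was not tested, since the table holds no reads.

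Hist1h4j and Hist1h4k are a further pair of copies, with 98.4% identity in the coding sequence and 95.5% before it. Hist1h4j had an element with 1.69, and Hist1h4k had none.

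Among the 22 Hist1h genes without an element at a GENCODE start, 15 had a member within 10 kb. Hist1h2be is among the 22 but not among the 15, and a RefSeq start of it lies in the element with 1.47 described above. The table lists called elements only, so the fold at the promoters of the others is not known.

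The rule's threshold separates few elements. The members nearest to it from inside lie 5805, 4215 and 3814 bp from a start, with log2 folds of -1.02, 1.47 and 1.42. The nearest elements outside lie 11740, 13130 and 14830 bp away, with 2.11, -0.67 and 1.29.

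Histone genes outside chromosome 13 showed the same sign. All 13 replication-dependent histone genes of the other clusters had a positive element within 10 kb of a start and 0 had a negative one, against the 24.5% and 22.1% of all protein-coding genes given above. The 11 elements behind this had a median log2 fold of 1.30, from 0.70 to 2.96, in the authors' deposited table. The 2 highest, 2.96 at Hist2h2aa1 and 1.87 at Hist2h2aa2 on chromosome 3, also count for their H3 neighbours Hist2h3c1 and Hist2h3c2. Of the 10 histone variant genes, whose products replace the standard histones outside replication, 3 had a positive and 4 a negative element within 10 kb. H3f3b, which encodes H3.3, had an element with 2.33 at 2551 bp and a second with 1.22 at 135 bp from a start. H2afj had 1.61 from an element that also lies 3886 bp from the start of Hist4h4. H2afy had -2.10 and H3f3a -1.82, both at the promoter.

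Genes that serve the supply of histones had elements of both signs. Of 12 genes for histone transcription and RNA processing, 5 had a positive and 3 a negative element within 10 kb, beside 24.5% and 22.1% of all protein-coding genes. Zfp473, a zinc finger protein of histone pre-mRNA processing, had 0.99 and 1.17. Casp8ap2, needed for histone gene expression, had 1.06 and 0.75 at promoters, Sympk, a subunit of the cleavage complex, had -1.07 at its promoter and 1.20 farther away, and Cstf2 had -1.25. Of 8 histone chaperones, 4 had a positive and 2 a negative element. Only 1 of the 8, Asf1a, had an element within 1 kb of a start, with -2.20 at 39 bp. Asf1b, which like Asf1a hands H3 and H4 to the assembly factors, had -2.19 at 7741 bp, and Chaf1b, a subunit of chromatin assembly factor 1, had 1.65 at 9545 bp. Daxx, a chaperone of H3.3, had 1.43 at its element of lowest q-value, 7192 bp away.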

How the data were processed

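STARR-seq output libraries of activated T helper 2 cells were used, 2 in 1 group. Per the deposited text lists, the authors derived 1 element table from both libraries on mm10. The sources used here name no aligner, caller or test. The deposited table has a signed log2 fold (base 2 assumed), a linear p-value and q-value, and a width per element. It holds no counts, so depth, replicate spread and intervals per element are unknown. The submitted table has 0 columns of single samples.

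Elements were assigned by midpoint to starts of GENCODE M21 on GRCm38. Copies were found with BLAST 2.17.0 (e-value at most 1e-10) and exact 50-mers. Promoters and their sites used RefSeq sequences of GRCm38. Python 3.11.15, pandas 2.3.3, NumPy 2.4.6, pysam 0.24.0 and matplotlib 3.10.9 were used. The site search was checked on made-up sequence.

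Members, gene lists and sites were chosen with earlier results of these data known. Genes with an element within 1000 bp of a start are all named. Of the other members, the 5 per direction of lowest q-value and of largest fold are named, and of each list up to 4 genes by lowest q-value. The alternatives, whose effects close the text, changed the window, thresholds, copies and reference point.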

Additional observations from a re-analysis of the deposited data

How the results depend on the processing

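Across 45 alternative values of 6 counts, 33 stayed within 1.5 times the main count, or within the binomial interval (exact Clopper-Pearson, 95%) of 82.2% to 99.9% for the share of positive members, and 12 did not. That interval serves as a yardstick only, since members share sequence and libraries and are not independent draws. With an absolute log2 fold of at least 1 there were 17 members, 16 of them positive, and 13 promoter elements, all 13 positive, at 17 genes. Without the elements that have a near-identical match there were 16 members, 15 of them positive, and 13 promoter elements, all 13 positive, at 20 genes. Both alternatives remove elements by construction. The second still keeps elements with repeated stretches, such as Hist1h2ah/Hist1h2bk with 55.5% of its 50-base stretches elsewhere. The share of positive members was 100% with a window of 5 kb and at a q-value below 0.001, where the negative member drops out, and ran from 91.4% to 100% over all alternatives. The start codon as reference point, protein-coding transcripts only and the omission of Hist1h4m and Hist1h4n were chosen after the data were seen. No replicate could be left out and no paired analysis was possible because the table holds 1 pooled value per element. Unknown depth limits every fold. The unstated counting of shared reads bears on members with repeated stretches, and 3 members, among them Hist1h1a, had 0% of 50-base stretches elsewhere.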
